A study of Homo sapiens with 6 samples.

Results

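The histone genes are the genes of the nucleosome core proteins H2A, H2B, H3 and H4 and of the linker protein H1. They were studied here in HCT116, a human colorectal carcinoma cell line, in 3 cultures labelled Rab27B KO, in which RAB27B was to be deleted by CRISPR/Cas9, and 3 cultures labelled wild type, all untreated and grown for 48 hours before RNA isolation. Whether the knockout cells were 1 clone or a pool was not stated in the labels. The data were 2 tables of the authors' own comparison, 1 of genes higher and 1 of genes lower in Rab27B KO, giving for each gene its log2 fold change with a q-value, and no value per sample. Members were chosen by their printed symbols, and 19 of the 7681 listed genes were histone genes. They are given by their current RefSeq symbols, which differ from the printed ones for all 19. Of these, 12 belong to the histone gene clusters and 7 are variant genes outside them. Sequencing depth and replicate spread were not analysed here, so a fold change carries no standard error, and the authors' q-value is the only measure of its error. In such bulk RNA a change in the share of cells in a cell cycle phase and a change in RNA per cell cannot be told apart.

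Replication-dependent histone genes lie in clusters and are transcribed mainly in S phase, when new DNA must be packaged. Their messenger RNAs usually end in a stem-loop bound by the protein SLBP in place of a poly(A) tail, so a library made by poly(A) selection captures them poorly. Variant, or replacement, histone genes lie elsewhere, have poly(A) tails, often carry introns and are expressed throughout the cell cycle. Some cluster genes also make polyadenylated RNA, mainly in cells that have stopped dividing. The type of RNA selection was not stated in the labels, and its part in the values below was not tested.

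RAB27B RNA was not lower but 36.7-fold higher (log2 fold change 5.20, q listed as 0) in the cultures labelled Rab27B KO, as the authors' deposited table gives it. RNA does not show whether the protein was lost, and protein was not examined here. Higher and lower therefore refer to the cultures labelled Rab27B KO against those labelled wild type. Were the labels exchanged, every direction given here would turn round, and this was not tested. Of the 11 colon epithelial markers examined, 7 were listed. In the authors' deposited table the log2 fold changes of EPCAM, CDH1 and CDX2 were -1.15, -1.15 and -0.75, and those of KRT8, KRT18, KRT19 and KRT20 were 0.61, 0.47, 0.52 and 2.08. VIL1, CDX1, CEACAM5 and LGALS4 were in neither table. The part of these changes in the histone values was not tested.

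The classes were set by symbol, and the stem-loop sites of listed genes are shown first because the 3' end is the known difference between tailless and polyadenylated histone RNA. They were found in GENCODE 29 transcripts (GRCh38) as a 6-base left arm that starts with GG and ends with T, a 4-base loop with T as the second base, and a right arm that is the exact reverse complement of the left, on the transcript's strand and after the coding sequence. Capitals mark the 16-base stem-loop.
H2AC18 (chr1:149842218-149842243, minus strand): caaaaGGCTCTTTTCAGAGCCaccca
H2BC21 (chr1:149886183-149886208, minus strand): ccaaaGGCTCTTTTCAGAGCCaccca
H2AC25 (chr1:228457364-228457389, minus strand): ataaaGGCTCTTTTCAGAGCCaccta
H2AC6 (chr6:26124664-26124689, plus strand): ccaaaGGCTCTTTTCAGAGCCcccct
H2BC4 (chr6:26123467-26123492, minus strand): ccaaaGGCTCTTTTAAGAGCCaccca
H2BC5 (chr6:26158582-26158607, plus strand): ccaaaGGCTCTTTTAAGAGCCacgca
H4C14 (chr1:149833027-149833052, plus strand): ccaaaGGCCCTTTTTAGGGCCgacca
H2AX (chr11:119094893-119094918, minus strand): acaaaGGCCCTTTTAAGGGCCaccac

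The left arm read GGCTCT in the H2A and H2B cluster genes and GGCCCT in the H4 genes and H2AX. The loop read TTTC in the H2A cluster genes and H2BC21, TTTA in H2BC4, H2BC5 and H2AX, and TTTT in the H4 genes. H2AC19 and H4C15 carried the same sites as H2AC18 and H4C14. A site was found in 9 of the 12 cluster members and in 1 of the 7 variant members, H2AX, which is known to make both tailless and polyadenylated RNA. Over all 19684 GENCODE genes with a protein-coding transcript the share was 0.386%. The annotated transcripts of the other 3 cluster members, H1-2, H2BC12 and H4C12, end at the stop codon, so no 3' region was there to search. Of the 59 unlisted cluster genes 21 (35.6%) had a site. In 31 of the 59 the annotated 3' region was under 16 bases, too short to hold one. In each of the 10 members with a site, the annotated transcript went on past it, by 35 bases in H2AC18 and by 1729 in H2BC21. A poly(A) signal, AATAAA or ATTAAA on the transcript's strand within its last 50 bases, was found in 8 of the 12 cluster members and all 7 variant members, against 81.3% of all GENCODE genes.

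All 12 listed cluster histone genes were higher in the cultures labelled Rab27B KO, while the variants went in both directions and had a smaller median change. Of the 19 histone genes, 17 were higher and 2 lower, against 50.7% higher and 49.3% lower among the 7681 listed genes. The median log2 fold change was 1.53 for the cluster genes, with a range of 0.70 to 2.06, and 0.36 for the variants, with a range of -1.04 to 0.48. Over all listed genes the median was 0.12. A log2 change of at least 1 in either direction was listed for 8 of 12 cluster genes and 1 of 7 variants, against 12.6% of all listed genes. Some cluster genes are near-identical copies with identical values. With each identical pair counted once, the cluster median was 1.28, and 6 of 10 measurements reached a log2 change of 1. Only genes with a q-value below 0.05 were listed, so a gene measured with little precision enters only with a large change. At a q-value below 0.01 the median was 1.00 for 8 cluster genes and 0.36 for the 7 variants. No test was made of the difference between the classes, or of the part of the threshold in it.

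**Figure D1:**
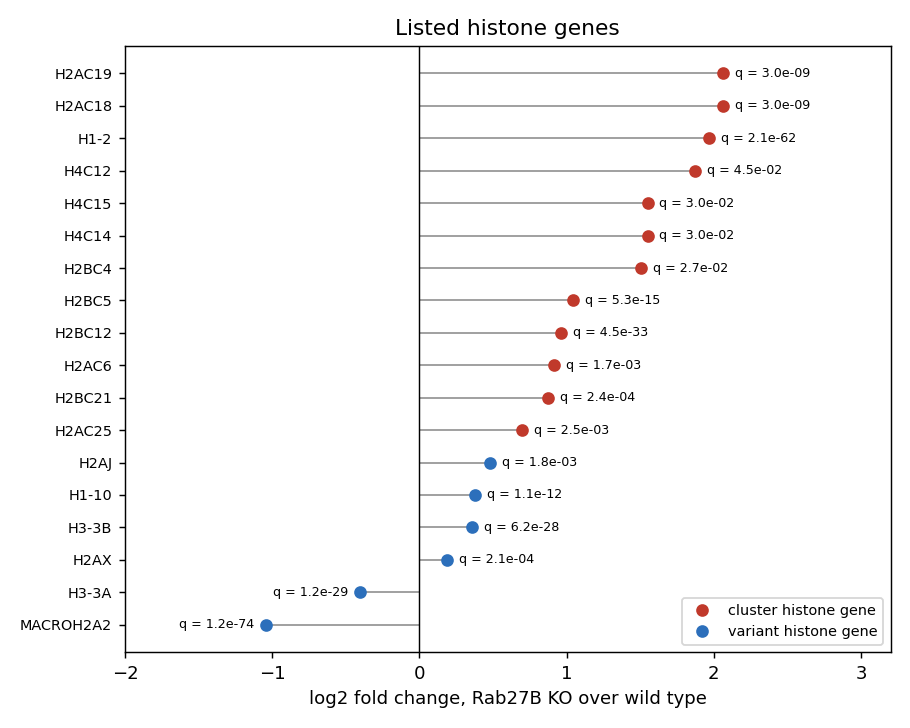
Log2 fold change, Rab27B KO over wild type, on the horizontal axis for each listed histone gene reported by name, with the authors' q-value beside each point. The 12 cluster genes (red) sit between 0.70 and 2.06, to the right of the variants (blue), of which H3-3A and MACROH2A2 are below 0.

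Among the linker histone genes, H1-2 (printed as HIST1H1C; chromosome 6, 26055740 to 26056470), which encodes a main somatic linker histone, was 3.91-fold higher in the cultures labelled Rab27B KO (log2 fold change 1.97, q = 2.13e-62) in the authors' deposited table. Its q-value was the smallest of any cluster gene and ranked 162nd among the 3898 higher genes. H1-10, a divergent linker histone that is a variant, had a smaller change and was 1.30-fold higher (log2 0.38, q = 1.06e-12) in the authors' deposited table. Of the 6 linker genes of the clusters, the other 5 were in neither table.

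The 4 listed H2B genes were all cluster genes and all higher. H2BC12 (HIST1H2BK; chromosome 6, 27138293 to 27146858) was 1.95-fold higher (log2 0.96, q = 4.46e-33) and H2BC5 (HIST1H2BD; chromosome 6, 26158121 to 26171349) 2.06-fold higher (log2 1.04, q = 5.27e-15) in the authors' deposited table. H2BC21 (HIST2H2BE; chromosome 1, 149884459 to 149886682) followed at 1.83-fold (log2 0.87, q = 0.000239) in the authors' deposited table. H2BC4 (HIST1H2BC) had the largest fold of the family, 2.84, with the weakest q-value, 0.0267, in the authors' deposited table.

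The H2A genes contained the largest rise of the cluster genes and the largest fall of the variants. H2AC18 and H2AC19 (HIST2H2AA3 and HIST2H2AA4; chromosome 1, starting at 149842218 and 149851061) were each listed as 4.18-fold higher with the same log2 fold change of 2.06 and the same q = 3.04e-09 in the authors' deposited table. They are near-identical copies, and the whole 549-base annotated transcript of H2AC18 is contained in that of H2AC19, so their values are 1 measurement rather than 2. H2AC6 (HIST1H2AC) was 1.88-fold higher (log2 0.91, q = 0.00166) and H2AC25 (HIST3H2A) 1.62-fold higher (log2 0.70, q = 0.00251) in the authors' deposited table. Among the variants, H2AX, whose protein is phosphorylated at DNA breaks, was 1.14-fold higher (log2 0.19, q = 0.000209) in the authors' deposited table, the smallest change of the 19. H2AJ, a variant close to canonical H2A, was 1.40-fold higher (log2 0.48, q = 0.00179) in the authors' deposited table.

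MACROH2A2 (H2AFY2; chromosome 10, 70052846 to 70112282), which encodes an H2A variant with a large macro domain associated with repressed chromatin, was 2.06-fold lower in the cultures labelled Rab27B KO (log2 fold change -1.04, q = 1.23e-74) in the authors' deposited table. It had the smallest q-value of all 19 histone genes, the 58th among the 3783 lower genes. It was the only variant with a log2 change of at least 1. MACROH2A1, its paralog, and H2AZ1 and H2AZ2, which encode the 2 forms of the variant H2A.Z, were in neither table.

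The listed H3 genes were both variants, and they went in opposite directions. H3-3A (H3F3A; chromosome 1, 226061831 to 226072019) was 1.32-fold lower (log2 -0.40, q = 1.21e-29) and H3-3B (H3F3B; chromosome 17, 75776434 to 75779779) 1.28-fold higher (log2 0.36, q = 6.21e-28) in the authors' deposited table. Both genes encode the same protein, the replacement histone H3.3, which is placed into chromatin also outside S phase. The level of each transcript was not analysed here, so the change in their sum is unknown. None of the 14 cluster H3 genes was in either table.

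The H4 genes had large folds with weak q-values. H4C14 and H4C15 (HIST2H4A and HIST2H4B, chromosome 1) were each listed as 2.93-fold higher (log2 1.55, q = 0.0298) in the authors' deposited table. The 583-base annotated transcript of H4C14 is contained whole in that of H4C15, and the 2 genes likewise count as 1 measurement. H4C12 (HIST1H4K; chromosome 6, 27831174 to 27831560) was 3.66-fold higher (log2 1.87, q = 0.0448) in the authors' deposited table, the histone gene nearest to the q-value threshold of 0.05. With each identical pair counted once, 15 of 17 measurements were higher, 10 of 10 in the clusters. Other cluster genes are also close copies of each other, and the handling of shared reads is unknown. The RefSeq span of H4C15 (chromosome 1, 149844488 to 149861240) also contains H2AC19 and the unlisted H3C15, and that of H2BC12 contains the unlisted H4C9. Whole spans were compared, without exons or strand, and H4C15 and H2AC19 lie on opposite strands. Whether reads in those overlaps count for either gene is therefore unknown.

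**Figure D2:**
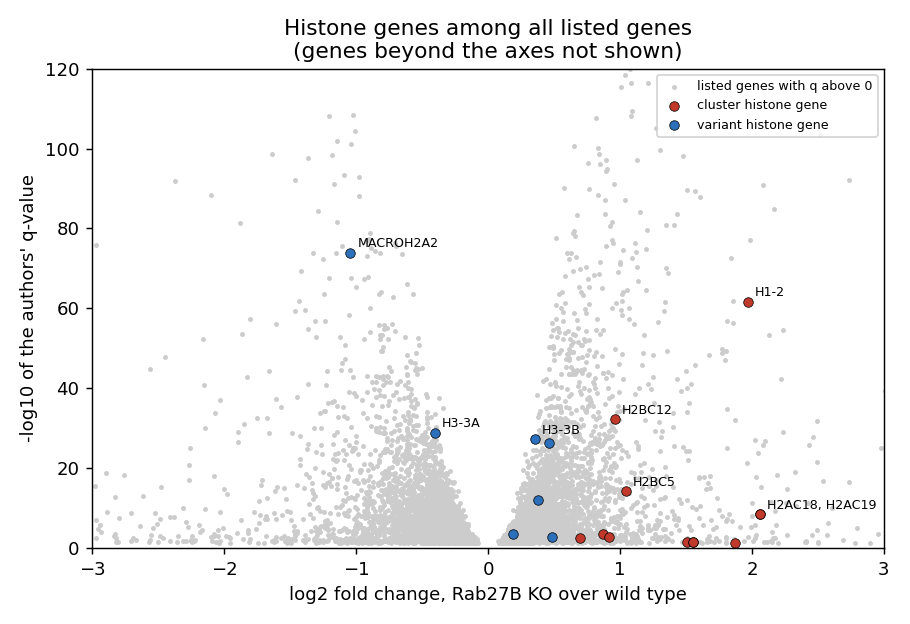
Log2 fold change, Rab27B KO over wild type, on the horizontal axis against -log10 of the authors' q-value (vertical axis) for all listed genes with a q-value above 0 that fall within the axes (grey), cluster histone genes (red) and variants (blue). H1-2 and H2BC12 combine a high fold with a small q-value, at 61.7 and 32.4 on the vertical axis, while the H4 genes and H2BC4 lie near its bottom at log2 values of 1.51 to 1.87.

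Most annotated histone genes were in neither table. RefSeq holds 94 protein-coding genes with a symbol of this kind, 71 of the cluster class and 23 variants. The class follows the symbol, and 69 of the 71 lie at the 3 histone gene clusters, while H2BC12L and H4C16 lie elsewhere. Of these 12 of 71 (16.9%) and 7 of 23 (30.4%) were listed, against 37.9% of the 20056 RefSeq protein-coding genes. Whether an unlisted gene was unchanged, too low to test or outside the authors' gene set is unknown. By family, 1 of 6 H1, 4 of 17 H2A, 4 of 19 H2B, 0 of 14 H3 and 3 of 15 H4 cluster genes were listed.

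The listed cluster genes included every one of the 6 that were taken, from general knowledge, as also making polyadenylated RNA. These are H1-2, H2AC6, H2BC4, H2BC5, H2BC12 and H2BC21, with a median log2 fold change of 1.00. Of the other 65 cluster genes 6 (9.23%) were listed, with a median log2 fold change of 1.71 and 4 distinct values. A poly(A) signal could be sought in full only where an annotated 3' region was long enough. Of the cluster genes with such a region of at least 50 bases, 8 of 21 with a signal were listed (38.1%) and 1 of 14 without one (7.14%). That 1 gene is H4C14, and H4C15, which shares its measurement, is among the 8. H2AC18 and H2AC19, also 1 measurement, both count in the 8. The other 36 cluster genes, with a shorter annotated 3' region, had 3 listed (8.33%), H1-2, H2BC12 and H4C12. Of the 8 cluster genes whose RefSeq gene spans more than 1 kb 5 were listed (62.5%), and of the 63 shorter ones 7 were (11.1%). Here too H4C15 is among the 5 and H4C14 among the 7, and H2AC18 and H2AC19 both count in the 7. The list of 6 was chosen with earlier results of these data known. Its full listing may have been fixed in advance and is no test. The poly(A) signal and span were examined after the listed genes were known. Their part in which genes were listed was not tested.

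**Figure D3:**
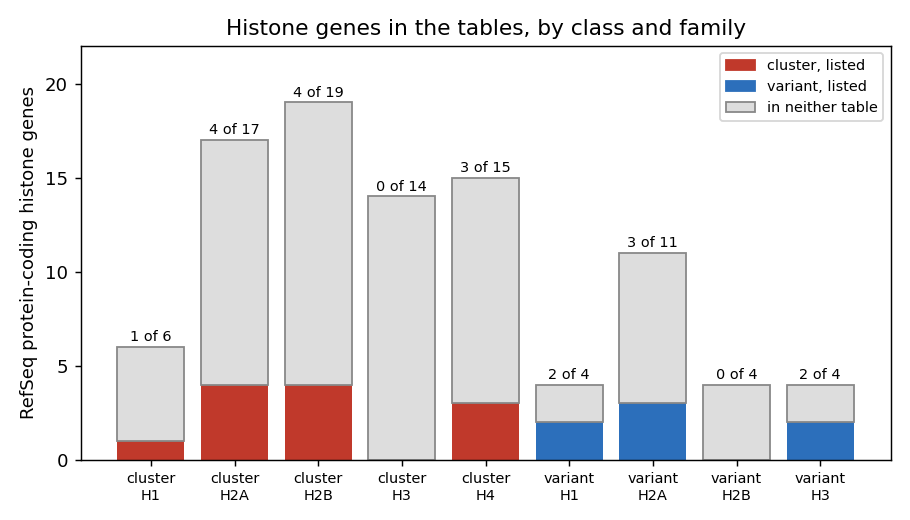
Number of RefSeq protein-coding histone genes (vertical axis) by class and family, with those listed in either table coloured (cluster red, variant blue) and those in neither table grey. No cluster H3 gene was listed, and 4 of 17 H2A and 4 of 19 H2B cluster genes were.

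The listed cluster genes came from all 3 histone gene clusters. On chromosome 6, between 25726063 and 27893891, 6 of 55 histone genes were listed and all 6 were higher, with log2 fold changes of 0.91 to 1.97. Other listed genes of that stretch did not share the direction: 1 of 6 was higher and their median was -0.55. TRIM38, a ubiquitin ligase that starts at 25962802, stood at -0.88 (log2, q = 2.33e-31), and the zinc finger genes ZNF322 and ZNF184 at -0.58 and -0.51 in the authors' deposited table. These 3 genes were picked with their values in view. Over all other listed genes of chromosome 6, 54.3% of 368 were higher. On chromosome 1, between 149782689 and 149887965, 5 of 11 histone genes were listed, all higher, and between 228424845 and 228458558 1 of 3 was. Over all other listed genes of chromosome 1, 57.9% of 784 were higher. No other listed gene started in either of those stretches.

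Upstream sequences were compared because the cluster members moved together. The 250 bases before the RefSeq start (GRCh38.p14) were searched on both strands for ATTTGCAT, the octamer bound by POU2F1 and typical of H2B promoters, for TATAAA, for CCAAT, bound by NF-Y, and for AAACACA, an element of H1 promoters. Such sequence was at hand for all 12 cluster and 6 of the 7 variant members. Capitals mark every match, and neighbouring or overlapping matches run together.
H1-2 (chr6:26056471-26056720, minus strand): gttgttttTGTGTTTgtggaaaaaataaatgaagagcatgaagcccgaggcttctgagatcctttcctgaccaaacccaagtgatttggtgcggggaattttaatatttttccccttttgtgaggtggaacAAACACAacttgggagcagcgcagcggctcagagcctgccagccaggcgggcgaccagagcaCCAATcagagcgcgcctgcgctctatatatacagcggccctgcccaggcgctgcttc
H2AC6 (chr6:26123922-26124171, plus strand): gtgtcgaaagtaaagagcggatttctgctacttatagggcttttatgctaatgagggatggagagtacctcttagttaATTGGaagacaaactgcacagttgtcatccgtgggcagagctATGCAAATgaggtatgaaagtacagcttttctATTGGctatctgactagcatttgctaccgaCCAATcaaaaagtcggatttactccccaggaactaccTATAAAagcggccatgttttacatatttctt
H2BC12 (chr6:27146856-27147105, minus strand): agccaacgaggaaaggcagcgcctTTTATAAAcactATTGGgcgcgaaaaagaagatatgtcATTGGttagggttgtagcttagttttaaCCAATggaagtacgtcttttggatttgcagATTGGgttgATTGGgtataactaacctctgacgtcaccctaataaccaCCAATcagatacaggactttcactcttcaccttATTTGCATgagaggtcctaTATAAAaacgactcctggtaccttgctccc
H3-3B (chr17:75779780-75780029, minus strand): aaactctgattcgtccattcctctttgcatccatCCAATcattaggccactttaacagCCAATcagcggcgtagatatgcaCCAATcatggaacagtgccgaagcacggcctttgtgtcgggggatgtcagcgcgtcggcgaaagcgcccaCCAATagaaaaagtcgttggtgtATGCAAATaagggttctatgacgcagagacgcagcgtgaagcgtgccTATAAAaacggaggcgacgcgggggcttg
H3-3A, first of 4 annotated starts (chr1:226061581-226061830, plus strand): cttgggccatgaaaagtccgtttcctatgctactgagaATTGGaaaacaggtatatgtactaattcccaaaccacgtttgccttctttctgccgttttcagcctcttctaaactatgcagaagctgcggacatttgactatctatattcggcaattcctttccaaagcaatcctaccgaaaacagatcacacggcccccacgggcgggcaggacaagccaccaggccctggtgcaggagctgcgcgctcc

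The H2AC6 window overlaps that of H2BC4, which is transcribed the other way, and their 250-base windows share 245 bases. In the authors' deposited table their log2 fold changes were 0.91 for H2AC6 and 1.51 for H2BC4. H2BC12 held the octamer and a TATA match, as did H3-3B, whereas the first H3-3A window held CCAAT alone. ATTTGCAT was present in 4 of 12 cluster members (33.3%), against 41.5% of the 53 unlisted cluster genes with sequence and 2.03% of all 27305 genes in the promoter table. For TATAAA the shares were 66.7%, 67.9% and 13.0%, and for CCAAT 75%, 86.8% and 37.0%. AAACACA was in H1-2, the 1 match among the 12, against 9.43% and 5.95%. A match shows letters only, and no binding was measured.

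Genes of DNA replication and histone chaperones were mostly lower where listed. Shares are read against 37.9% of RefSeq protein-coding genes listed and, among listed genes, 50.7% higher and 49.3% lower. Of 36 genes of DNA replication and S phase 21 were listed, 3 higher and 18 lower, with a median log2 fold change of -0.32. RRM2 and TK1, whose enzymes serve deoxynucleotide synthesis, rose by 0.48 (q = 4.29e-36) and 0.47 (q = 1.61e-32) on the log2 scale in the authors' deposited table, 2 of the 3 rises. MCM3 and MCM5, subunits of the replicative helicase, had -0.43 (q = 1.16e-33) and -0.39 (q = 4.85e-22) in the authors' deposited table. Of 30 histone chaperones and remodellers 22 were listed, 1 higher and 21 lower, with a median of -0.28. The 30 include CENPA, itself a histone gene and in neither table. MCM2, among the lower genes, counts in both this list and that of DNA replication. SSRP1, a subunit of the chaperone FACT, had -0.38, SRCAP, which exchanges H2A.Z into nucleosomes, -0.48, TONSL, which reads new histones, -0.56, and RBBP4, a subunit of CAF-1, -0.46 in the authors' deposited table. The 1 higher member was ASF1B, an H3-H4 chaperone of dividing cells, at 0.26 (q = 2.54e-08) in the authors' deposited table, and it was named after its value was seen.

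The chaperone list holds genes that place H3.3 into chromatin, which were not counted as a group of their own. In the authors' deposited table the log2 fold change of HIRA was -0.38, of its partners UBN1 and UBN2 -0.31 and -0.47, of ATRX -0.50 and of DAXX -0.22. These 5 were picked after their values were seen, from a list in which 21 of 22 listed genes were lower.

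A list of 29 genes for forming and degrading the histone mRNA 3' end also held general factors of cleavage and polyadenylation. Of the 29 genes 21 were listed, 4 higher and 17 lower, with a median log2 fold change of -0.24. This stands against 37.9% of coding genes listed and 49.3% of listed genes lower. ERI1, the exonuclease that trims and degrades histone mRNA ends, was 1.41-fold lower (log2 -0.49, q = 6.75e-19) and UPF1, a helicase needed for histone mRNA decay, 1.25-fold lower (log2 -0.32, q = 1.01e-13) in the authors' deposited table. CPSF1 and FIP1L1, subunits of the cleavage and polyadenylation factor, had -0.37 and -0.40 in the authors' deposited table. The 4 higher genes were LSM10 (log2 0.21), ZNF473 (0.19), SNRPB (0.18) and SNRPG (0.15). Among the 17 lower ones LSM11 had -0.48 and CASP8AP2 -0.44. These 4 higher genes, LSM11 and CASP8AP2 were named after their values were seen. SLBP, the stem-loop binding protein gene, was in neither table. Of 16 genes of histone gene transcription 11 were listed, 4 higher and 7 lower, with a median of -0.21, a split nearer to that of all listed genes. SUPT4H1 had -0.39, CRAMP1 -0.50, NFYB, a subunit of NF-Y, -0.47 and E2F1, an activator of S phase genes, 0.28 in the authors' deposited table. NPAT, the cyclin E-CDK2 target that drives histone transcription, was in neither table. No listed gene of these 4 lists reached a log2 change of 1.

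**Figure D4:**
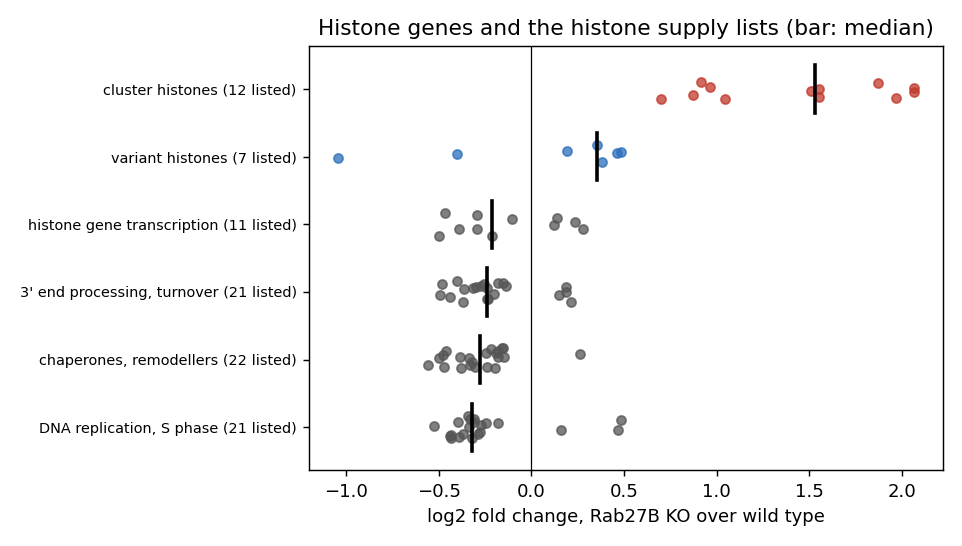
Log2 fold change, Rab27B KO over wild type, on the horizontal axis for each listed gene of the 2 histone classes and of 4 lists of histone supply genes, with the median as a black bar. The cluster histone median is 1.53, or 1.28 with identical pairs counted once. The variant median is 0.36, while the 4 lists have medians of -0.21 to -0.32.

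Transcript length moved with direction across all listed genes, and cluster histone transcripts are short. Among the other listed genes 82.8% of 279 with a longest transcript of up to 1 kb were higher, 71.5% of 1238 between 1 and 2 kb, 55.3% of 2858 between 2 and 4 kb and 35.9% of 3212 above 4 kb. Of the 12 cluster genes 9 were in the shortest class. Among them, the annotated transcripts of H1-2, H2BC12 and H4C12 end at the stop codon, so their full length may be greater. The RefSeq gene of H2BC12 spans 8566 bases. Those 9 had a median log2 fold change of 1.55, against 0.36 for the other 279, and 7 of them (77.8%) had a log2 change of at least 1, against 14.7%. The 3 cluster genes with a longer transcript, H2AC6, H2BC21 and H4C15, had a median of 0.91, but H4C15 shares its 1 measurement with H4C14 of the shortest class. H2AC6 is longer than 1 kb in GENCODE only, and its RefSeq gene spans 519 bases. Without that pair, and with H2AC18 and H2AC19 counted once, the 7 measurements of up to 1 kb had a median of 1.51, with 5 at a log2 change of at least 1, and the 2 longer ones a median of 0.89. The supply lists were made of longer transcripts, with medians of 3163 to 4828 bases. Their shares of higher genes were 4.55% for chaperones, 14.3% for replication, 19% for 3' end processing and 36.4% for histone gene transcription. The part of length in these values was not tested.

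**Figure D5:**
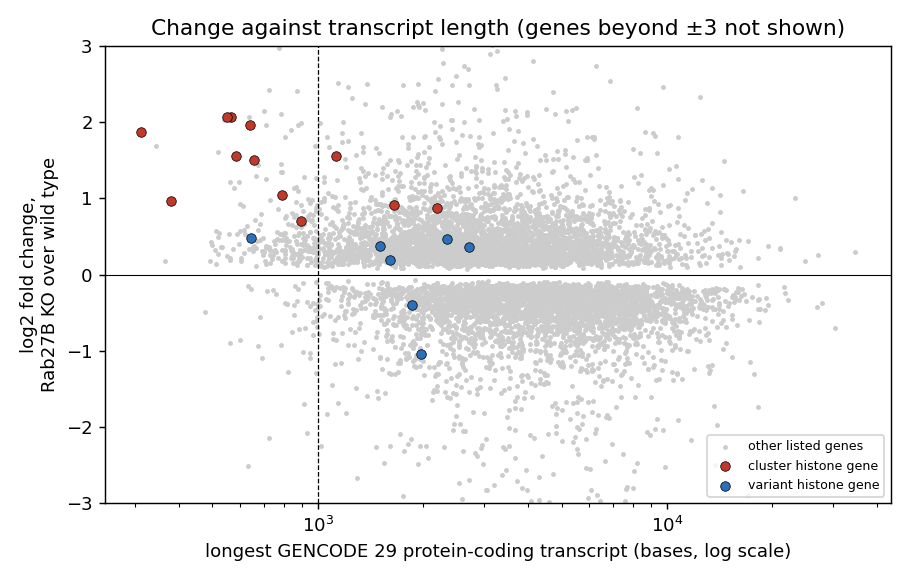
Log2 fold change, Rab27B KO over wild type, on the vertical axis against the longest annotated transcript (horizontal axis, log scale) for other listed genes (grey), cluster histone genes (red) and variants (blue), with a dashed line at 1 kb. The cluster genes of up to 1 kb have a median of 1.55, above that of the other listed genes of that length at 0.36.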

How the data were processed

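RNA was sequenced in 3 Rab27B KO and 3 wild-type cultures of HCT116. Column-purified RNA was made into DNBSEQ libraries, per the labels' protocols. The submitters' processing notes name HISAT, Bowtie2 and GRCh38 without roles. Counting, scaling, test and annotation were not given in the sources used here. Per the file headers, the deposited values are the authors' log2 fold change, Rab27B KO over wild type, the linear ratio for higher genes and a q-value. All q-values were below 0.05, so genes that did not pass are not analysed here. No column held values per sample, so depth is unknown and no test was added.

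Members and lists were chosen with earlier results of these data known. All 19 members matched RefSeq (GRCh38.p14) by gene ID. Cluster genes were those with symbols H1-1 to H1-6, H2AC, H2BC, H3C, H4C, H4-16, H2AW, H2BU1 and H3-4, or an older HIST symbol, and all others were variants. The rule for named genes was every listed member, RAB27B, and the 4 members of each supply list with the smallest q-value. Of the listed members, 1 variant enters the counts and medians but is not reported by name here. The colon epithelial markers were all named. Other genes given with a fold change are said to be chosen after their values were seen. Genes named without a fold change, such as unlisted ones, lay outside the rule. Coordinates are 1-based. Transcript structure came from GENCODE 29. The stem-loop search was checked on simulated sequences. Python 3.11.15, pandas 2.3.3 and matplotlib 3.10.9 were used. Alternatives were other thresholds, gene matching and class borders.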

Additional observations from a re-analysis of the deposited data

How the results depend on the processing

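Each alternative takes a subset or a regrouping of the same authors' values, so it could not turn the direction of any gene and is no check of it. With a log2 change of at least 1 in either direction, 8 members were higher and 1 lower (17 and 2 without it), the median log2 fold change was 1.55 (0.91), and of the variants 0 were higher and 1 lower, so their median turned to -1.04, which is MACROH2A2 alone. Without chromosome 6, 11 members and 6 cluster genes were higher (17 and 12 with it), and the median of all members was 0.48. At a q-value below 0.01 the cluster median was 1.00 (1.53). Leaving out the 6 cluster genes known to make polyadenylated RNA left 6 higher. Counting H2AX and H2AJ with the clusters left 3 variants higher (5). These counts change because fewer genes enter or genes change class. The other 45 values, of 57, stayed within 1.5 times their reported value, including those with identical pairs counted once, an alternative chosen after seeing the data. No paired analysis was possible because no values per sample were given, and leaving out single replicates could not be run for the same reason. Depth is unknown, so what it limits cannot be given. The H4 genes and H2BC4 had the q-values nearest to the threshold, 0.0267 to 0.0448.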
